A study of Homo sapiens with 9 samples.

Results

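hsa-miR-505-5p, hsa-miR-505-3p, hsa-miR-652-5p and hsa-miR-652-3p (below without the species prefix) are the mature products of 2 miRNA hairpins and make up 4 of the 2652 mature miRNA names counted. They were chosen from these data, because miR-505-5p was retained by the MS2 control bait and miR-652-5p was lost from it, each relative to input. The 3p arms came along as the other product of each hairpin. Levels of the 5p arms, and the balance between the arms of a hairpin, are therefore a description with no test in any comparison. The values of the 3p arms did not enter the choice, and these arms were tested in every comparison.

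A miRNA hairpin is cut into a short duplex, whose strands are named 5p and 3p after the side of the hairpin they come from. Both strands arise in equal number. An Argonaute protein then keeps mainly the guide strand, which finds its targets through the seed at bases 2 to 8, and the passenger strand is usually degraded. Each arm has its own seed, so the arms of a single hairpin can bind different RNAs.

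The data are 9 small RNA libraries from ES-2, an established ovarian cancer cell line that was wild-type and untreated in each group. In miRNA trapping by affinity purification (miTRAP), a bait RNA is anchored on beads by its MS2 loops, which a fusion protein recognises, and RNA that it pulls from a cell lysate is eluted. The groups, with 3 libraries each, were the lysate itself (input), the eluate of a bait with MS2 loops alone (MS2 control) and the eluate of a bait that also carried the PD-L1 3'UTR. The study's methods state a larger amount of the PD-L1 3'UTR bait than of the MS2 control bait, so bait amount and bait sequence cannot be told apart, and nothing states that replicates came from separate cultures, so p values measure the spread between these libraries, which may be technical.

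Library totals ranged from 672824 to 5983577 miRNA reads, and 1 read was worth between 0.225 and 1.34 counts per 1000000 reads (CPM, scaled between libraries by TMM factors). Replicates differed beyond sampling noise in each group, with chi-square statistics per degree of freedom from 8.60 to 156. Pairs with replicate 1 gave the larger values in every group. These were 121 and 156 in the input, 108 and 138 in the MS2 control and 93.8 and 154 with the PD-L1 3'UTR. Replicates 2 and 3 gave 8.60, 30.5 and 17.9 in the same order of groups. All 4 arms passed the filter on low counts, as did 408 miRNAs in total. PD-L1 3'UTR replicate 1 stood apart in markers of other tissues. The sum of 2 muscle miRNAs reached 1500 CPM there, against 28.3 to 100.5 CPM in the other PD-L1 3'UTR libraries, 41.2 to 125 CPM in the MS2 control and 1.58 to 3.70 CPM in the input. The liver marker miR-122-5p had 161 CPM there, at most 0.725 CPM in the other PD-L1 3'UTR libraries, 40.1 to 50.3 CPM in the MS2 control and 1.58 to 3.42 CPM in the input. Of 6 blood miRNAs, miR-223-3p, miR-150-5p and miR-144-3p had at most 3 reads in any library other than PD-L1 3'UTR replicate 1. Summed levels of the 6, set mostly by the others, ranged from 191 to 266 CPM in the input, from 310 to 359 CPM in the MS2 control and from 541 to 1422 CPM in the PD-L1 3'UTR group. For 5 epithelial miRNAs of the miR-200 family these ranges were 41.4 to 55.4, 55.2 to 78.1 and 36.96 to 236 CPM, and miR-429 was at 0 in all 9 libraries. The part of these markers in the differences between groups was not tested.

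The count table lists all 4 arms on chromosome X. In RefSeq (GRCh38.p14) the hairpin of miR-652 spans chrX:110055329-110055426 within TMEM164. In the GENCODE annotation it lies in an intron of that gene, on the same forward strand, and overlaps no exon of it. RefSeq sequences matched 2 of the 4 arms, and they are shown because the results turn on the contrast between the arms of a single duplex. Capitals mark the seed.
miR-652-5p: cAACCCUAggagagggugccauuca
miR-652-3p: aAUGGCGCcacuaggguugug
The 25 bases of miR-652-5p lie at chrX:110055349-110055373 and the 21 bases of miR-652-3p at chrX:110055389-110055409, both on the forward strand. Bases 1 to 9 of miR-652-5p, CAACCCUAG, are complementary to bases 11 to 19 of miR-652-3p, CUAGGGUUG. Bases 18 to 23 of miR-652-5p are complementary to bases 1 to 6 of miR-652-3p. The arms thus pair over 2 uninterrupted stretches but carry unrelated seeds. No other miRNA of the count table with a RefSeq sequence had either seed.

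The arms differ little in base composition. The GC content was 56.0% for miR-652-5p and 57.1% for miR-652-3p, both just below the upper quartile of 57.5% over the 371 tested miRNAs with a sequence. Each arm holds a run of GGG, as did 115 of the 371. Among those 115, 46 were higher and 37 lower in the MS2 control relative to input, a median log2 fold change of 0.30, against 119 higher, 138 lower and a median of 0.03 over all 371. With the PD-L1 3'UTR against the MS2 control, 28 of the 115 were higher and 54 lower, against 116 and 108 of the 371. Scaling by library totals shifted calls against the input upward in every list, to 63 higher and 29 lower of the 115 in the MS2 control and 179 and 96 of the 371. By first base, 15 of 26 miRNAs starting with G were higher and 4 lower in the MS2 control relative to input, whereas 33 of 85 starting with C, as miR-652-5p does, were higher and 25 lower. Of 100 starting with A, as miR-652-3p does, 33 were higher and 44 lower, and of 160 starting with U, 38 and 65. For A and U the balance turned with library totals, to 43 higher and 32 lower and to 71 and 43. In the highest GC quartile of 93 miRNAs, 38 were higher and 25 lower in the MS2 control relative to input, and in the lowest quartile of 109 miRNAs, 25 and 43 (47 and 26 with library totals). With the PD-L1 3'UTR against the MS2 control, 9 of the 93 were higher and 38 lower, and 48 of the 109 were higher and 21 lower.

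The annotated 3'UTR of the bait's gene was searched for seed matches of the miR-652 arms. CD274 encodes PD-L1, and its transcript CD274-202 has a 3'UTR of 2692 bases. How much of it the bait held was not analysed here. On its sense strand neither TAGGGTT nor AGGGTTA, the matches to miR-652-5p, nor GCGCCAT or CGCCATA, the matches to miR-652-3p, were found. The shorter matches AGGGTT and CGCCAT were not found either. Of the 371 tested miRNAs with a sequence, 28.0% had at least 1 match of 7 bases and 47.4% had at least 1 of 6 bases.

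hsa-miR-505-5p was the minor arm of its hairpin in the lysate and the major arm in the MS2 control. It had 7.09, 7.07 and 4.73 CPM in input replicates 1, 2 and 3, on 27, 21 and 21 reads. In the MS2 control it had 75.6, 82.8 and 67.3 CPM, on 117, 209 and 89 reads. With the PD-L1 3'UTR it had 0.707 CPM in replicate 1, from 1 read, and 0 reads in replicates 2 and 3. All 3 MS2 control libraries were above every other library. The means were 6.30 CPM ± 1.36 (SD, n = 3) in the input and 75.2 CPM ± 7.76 in the MS2 control, an 11.9-fold difference that the choice of this arm fixed. By mean level it stood at place 327 of 408 tested miRNAs in the input and at place 168 in the MS2 control. Pooled over libraries, its CPM was 272 times as high in the MS2 control as with the PD-L1 3'UTR, with an exact 95% interval from 48.6 to 10779 that covers counting error only.

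hsa-miR-505-3p, the major arm in the lysate, went the other way. It had 110, 104 and 128 CPM in input replicates 1, 2 and 3, on 420, 309 and 568 reads. The MS2 control held 7.75, 14.3 and 20.4 CPM, on 12, 36 and 27 reads. The PD-L1 3'UTR libraries held 15.6, 28.1 and 15.9 CPM, on 22, 21 and 22 reads. The input libraries were above all trapped libraries, and the trapped groups overlapped. By edgeR's quasi-likelihood test, miR-505-3p fell from 114 CPM ± 12.3 (SD, n = 3) in the input to 14.1 CPM ± 6.33 in the MS2 control, with a log2 fold change of -3.02 (adjusted p of 3.73e-05, SE 0.36). In the same comparison 37% of all 408 miRNAs were lower and 32.8% higher, or 104 lower and 199 higher by count when scaled by library totals, against 151 and 134. Against the input it also fell in the PD-L1 3'UTR eluates, to 19.9 CPM ± 7.15 and a log2 fold change of -2.55 (adjusted p of 0.000132, SE 0.36), a comparison in which 32.4% of all miRNAs were lower and 34.1% higher (132 and 139 by count, or 90 and 192 when scaled by library totals). Between the PD-L1 3'UTR and the MS2 control the log2 fold change was 0.46 (adjusted p of 0.307, SE 0.37), with a 95% interval from -0.36 to 1.29, so that a difference in either direction was not shown. In this comparison 31.4% of all miRNAs were higher and 28.7% lower.

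hsa-miR-652-5p, the minor arm of its hairpin, was detected in the lysate and not in the MS2 control. Input replicates 1, 2 and 3 held 25.5, 47.1 and 44.3 CPM, on 97, 140 and 197 reads. The MS2 control libraries held 0 reads each, and 3 reads would have been worth between 1.19 and 2.27 CPM there. With the PD-L1 3'UTR it had 11.3, 9.38 and 9.42 CPM, on 16, 7 and 13 reads. The 3 groups did not overlap, in the order input, PD-L1 3'UTR, MS2 control. Set against a floor of 3 reads per library, the input mean of 39.0 CPM ± 11.8 (SD, n = 3) was at least 21.7-fold higher than the MS2 control, and the PD-L1 3'UTR mean of 10.04 CPM ± 1.11 was at least 5.58-fold higher. These bounds describe the loss by which the arm was chosen.

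hsa-miR-652-3p, the major arm, was reduced in the MS2 control but stayed detectable in each library. Its levels were 156, 197 and 205 CPM in the input, on 592, 586 and 912 reads. They were 43.3, 38.02 and 62.0 CPM in the MS2 control, on 67, 96 and 82 reads. They were 140.0, 102 and 180.5 CPM in the PD-L1 3'UTR eluates, on 198, 76 and 249 reads. All MS2 control libraries lay below all others, whereas the input and the PD-L1 3'UTR libraries overlapped. miR-652-3p fell from 186 CPM ± 26.7 (SD, n = 3) in the input to 47.8 CPM ± 12.6 in the MS2 control, with a log2 fold change of -1.97 (adjusted p of 0.000101, SE 0.27). It was higher with the PD-L1 3'UTR than in the MS2 control, at 141 CPM ± 39.3, which corresponds to 1.57 on the log2 scale (adjusted p of 0.000509, SE 0.27). Against the input the log2 fold change with the PD-L1 3'UTR was -0.40 (adjusted p of 0.198, SE 0.26), with a 95% interval from -0.98 to 0.18. Scaled by library totals it was 0.17 (adjusted p of 0.575), so the direction of this value depended on the scaling. The fall against the input passed the threshold without MS2 control replicate 3 (-0.58, adjusted p of 0.0460).

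**Figure D1:**
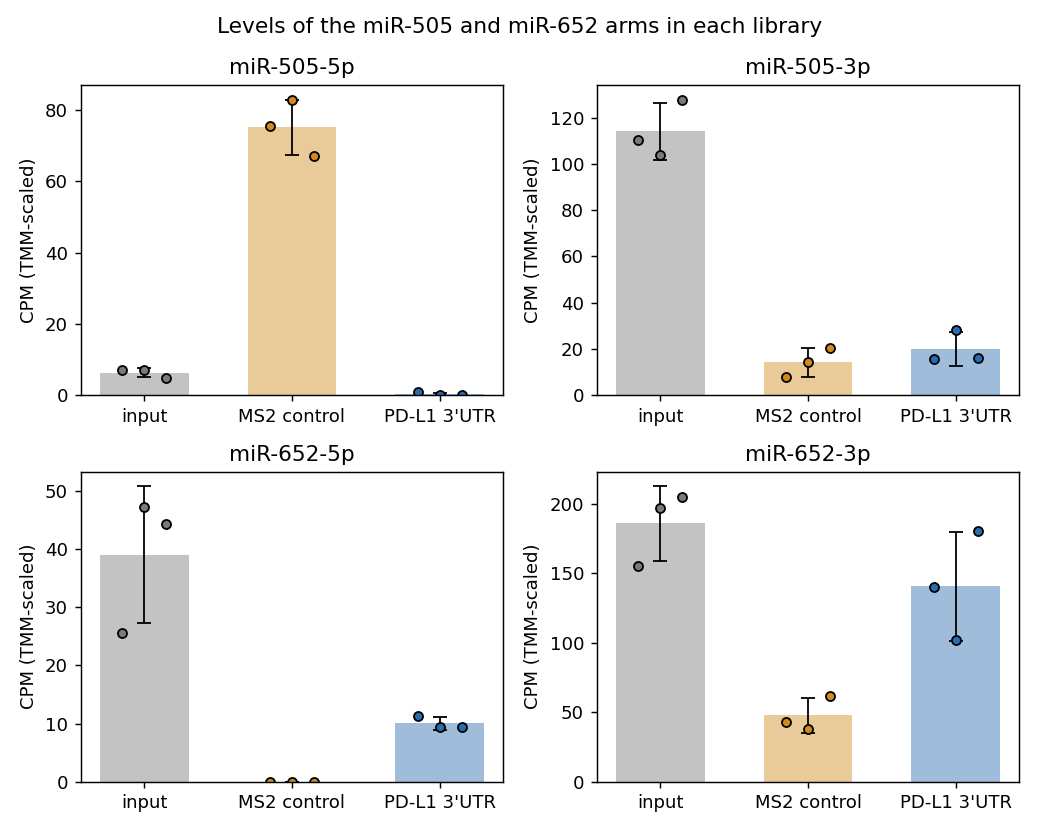
Level of each arm (TMM-scaled CPM, linear axis from 0) in the input, MS2 control and PD-L1 3'UTR groups; bars are group means, error bars the SD of 3 libraries and points the libraries. miR-505-5p is highest in the MS2 control at 67.3 to 82.8 CPM, while the other 3 arms are highest on average in the input and miR-652-5p is at 0 in the MS2 control.

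Both 5p arms were below all their input levels in every PD-L1 3'UTR library, which is given without a test because the input values entered their choice. In this comparison 38 of the 5p arms of 101 hairpins with both arms tested were lower and 39 higher at the threshold. Over all 408 miRNAs, 32.4% were lower and 34.1% higher. The share of all miRNAs whose libraries did not overlap between groups was not counted, here or for the arms above. The pooled input CPM of miR-505-5p was 21.8 times that of the PD-L1 3'UTR group, with an exact 95% counting interval from 3.78 to 872 that rests on 1 read in the latter. This ratio was 14.1 without PD-L1 3'UTR replicate 3. For miR-652-5p the fitted log2 fold change was -1.94. The 3p arms were also fitted without PD-L1 3'UTR replicate 1, the library with the high tissue markers. Their log2 fold changes against the input were then -2.47 for miR-505-3p (adjusted p of 0.000208) and -0.44 for miR-652-3p (adjusted p of 0.207). Against the MS2 control they were 0.64 for miR-505-3p (adjusted p of 0.214) and 1.62 for miR-652-3p (adjusted p of 0.000537), so each 3p arm kept its side of the threshold without that library.

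**Figure D2:**
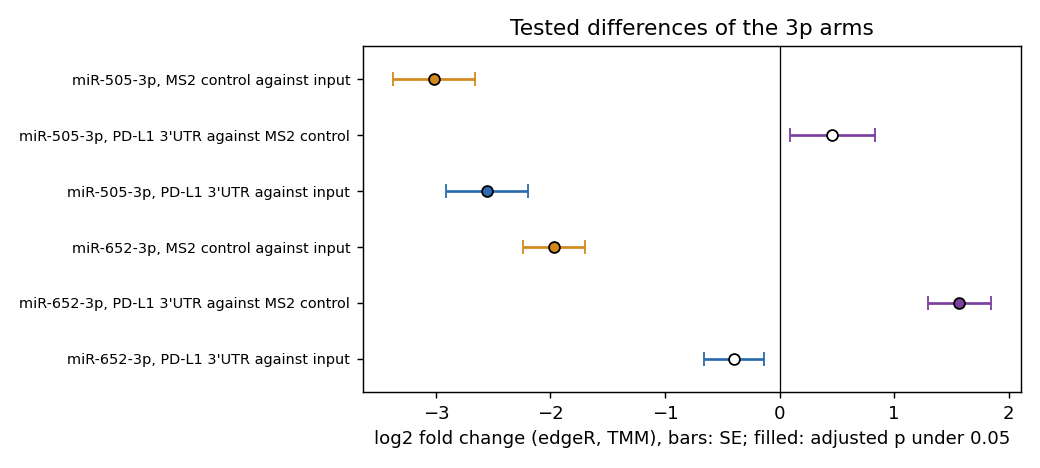
Log2 fold changes (horizontal axis, edgeR with TMM) of miR-505-3p and miR-652-3p in 3 comparisons each, with bars for the SE and filled points where the adjusted p is under 0.05. miR-652-3p lies at 1.57 against the MS2 control and at -0.40 against the input, and miR-505-3p lies at -3.02 and -2.55 against the input in the MS2 control and with the PD-L1 3'UTR.

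The balance of the arms within a library needs no scaling between libraries. It counts reads and not molecules, since arms can differ in how well they are ligated and amplified. The 5p arm took 6.04%, 6.36% and 3.57% of the miR-505 reads in input replicates 1, 2 and 3. It took 90.7% (exact Clopper-Pearson 95% interval from 84.3 to 95.1), 85.3% (80.2 to 89.5) and 76.7% (68.0 to 84.1) in the MS2 control. With the PD-L1 3'UTR it took 4.35% of 23 reads in replicate 1, and 0 of 21 and 0 of 22 reads in replicates 2 and 3. With 3 reads taken as the limit, these allow shares of up to 14.3% and 13.6%. The exact 95% upper limits were 16.1% and 15.4%. The major arm was thus 3p in all input and PD-L1 3'UTR libraries and 5p in all MS2 control libraries. From input to MS2 control the summed level of both arms changed less than either arm, with input, MS2 control and PD-L1 3'UTR means of 120 CPM ± 11.0 (SD, n = 3), 89.3 CPM ± 7.02 and 20.1 CPM ± 6.95.

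For miR-652 the 5p share was 14.1%, 19.3% and 17.8% in input replicates 1, 2 and 3. It was 0 of 67, 0 of 96 and 0 of 82 reads in the MS2 control, which allows shares of up to 4.48%, 3.12% and 3.66%. It was 7.48%, 8.43% and 4.96% with the PD-L1 3'UTR. The 3p arm was the major arm in all 9 libraries, and the 5p shares of the groups did not overlap. Pooled, 0 of 245 reads in the MS2 control allow a 5p share of up to 1.22% with 3 reads taken as the limit, against 17.2% of 2524 reads in the input. Summed over both arms, the means in the same order of groups were 225 CPM ± 38.2 (SD, n = 3), 47.8 CPM ± 12.6 and 151 CPM ± 39.3. Between the PD-L1 3'UTR and the input, the mean log2 ratio of 5p to 3p reads differed by -1.42 for miR-652, with libraries that did not overlap. For miR-505 it differed by -0.77, and the libraries overlapped. Shifts of this size were common in this comparison. Of 101 hairpins with both arms tested, 53 (52.5%) moved by over 2 in either direction. In size, 64 moved by more than miR-652 and 71 by more than miR-505. How many of the 101 hairpins had groups that did not overlap, in this ratio or in the 5p share, was not counted.

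**Figure D3:**
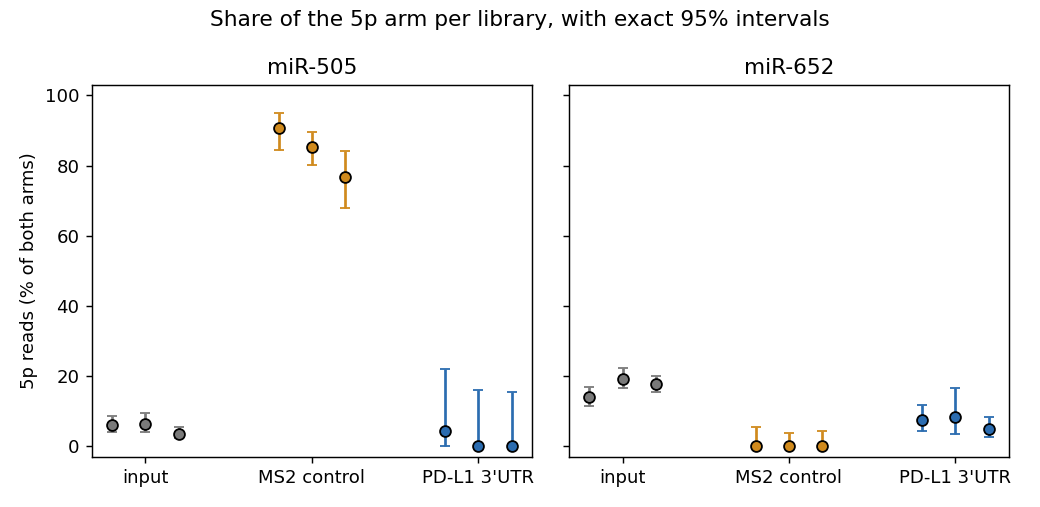
Share of 5p reads among the reads of both arms (percent) for miR-505 and miR-652, with 1 point per library and bars for the exact 95% binomial interval, which covers counting error only. The MS2 control points of miR-505 lie between 76.7% and 90.7%, while those of miR-652 are at 0.

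Among all hairpins, 101 had both arms tested. From input to MS2 control the log2 ratio of 5p to 3p reads moved by over 2 in either direction in 43 of them (42.6%), and the median shift was 0.19 with quartiles at -1.31 and 1.86. miR-505 moved by 6.65 toward 5p, place 4 of 101 from that end. miR-652 moved by -5.05 toward 3p, place 3 of 101 from the other end, with 0.5 added to every read count. Because miR-652-5p had no read in the MS2 control, the size of its shift depends on that addition and was -4.07 with 1 added, place 5 of 101. Large shifts were common, and these hairpins stood near opposite ends of the range.

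The larger shifts toward 5p were those of miR-23a (8.67), miR-1226 (7.58) and miR-342 (6.86). Their reads are given as sums over the 3 libraries of a group, with no scaling for depth. Input libraries held 3794799 to 5983577 reads and MS2 control libraries 1156261 to 2236535. miR-23a-5p had 31 reads in the input and 372 in the MS2 control, where miR-23a-3p went from 49986 to 1356 reads. miR-1226-5p went from 62 to 130 reads and miR-1226-3p from 524 to 3, while miR-342-5p went from 90 to 545 and miR-342-3p from 7598 to 360. The larger shifts toward 3p were those of miR-30b (-8.02) and miR-26b (-6.59). There the 5p arms went from 6459 to 286 and from 38559 to 3228 unscaled reads, and the 3p arms from 51 to 512 and from 5 to 43. Of the 101 hairpins, 45 had 3p as the major arm in all 3 input libraries. Among those, 9 had 5p as the major arm in all 3 MS2 control libraries, and 5 of the 9 had 3p again in all 3 PD-L1 3'UTR libraries. These 5 were miR-505, miR-342, miR-365b, miR-454 and miR-1226. The change in the other direction, from 5p in the input to 3p in the MS2 control, was seen in 6 hairpins, out of 54 with 5p as the major input arm.

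**Figure D4:**
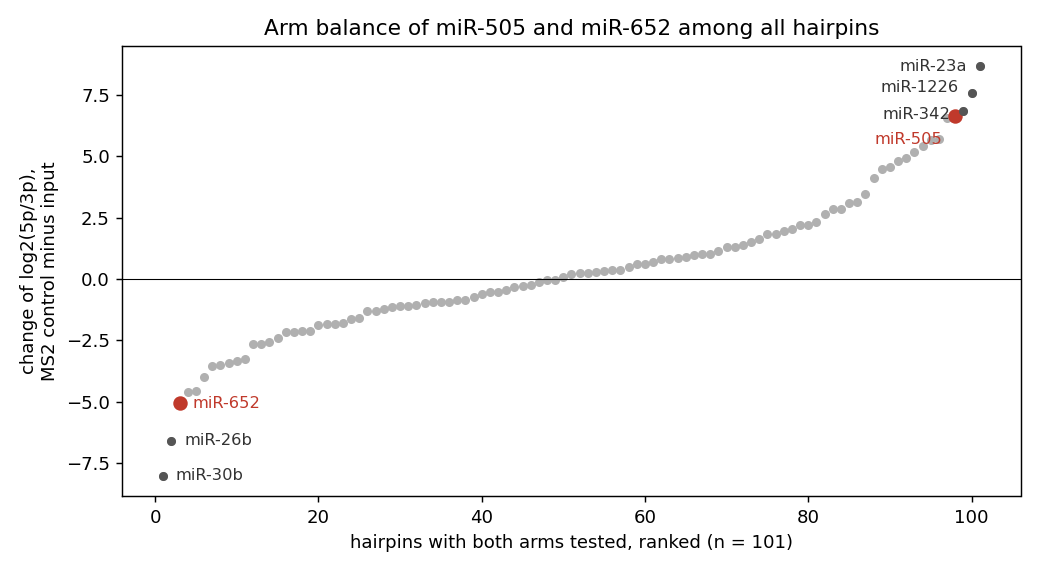
Change of the log2 ratio of 5p to 3p reads from input to MS2 control (vertical axis) for 101 hairpins in order of the change (horizontal axis), as differences of group means. miR-505 lies at 6.65 and miR-652 at -5.05 (red), beside the 5 other hairpins nearest the ends (dark gray).

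The arms of all 101 hairpins give the background for single arms. Of the 5p arms, 34 were higher and 43 lower in the MS2 control relative to input. Of the 3p arms, 24 were higher and 48 lower, and both 3p arms described here were among the 48. With library totals these counts were 48 higher and 30 lower for 5p and 37 and 32 for 3p. With the PD-L1 3'UTR against the MS2 control, 31 of the 3p arms were higher, miR-652-3p among them, and 24 were lower.

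The arms also differed in which miRNAs had the most similar pattern, measured by Pearson's r of log2(CPM + 1) over the 9 libraries, which fall into 3 groups that set most of the coefficient. The patterns closest to miR-505-5p were those of miR-424-3p (r of 0.991), miR-3689f (0.990) and miR-320b (0.989), all higher in the MS2 control than elsewhere on average. miR-424-3p, the most abundant of these, had means of 794, 2096 and 326 CPM in the input, MS2 control and PD-L1 3'UTR groups. The closest to miR-505-3p were miR-21-5p (0.981), miR-221-5p (0.975) and miR-103a-3p (0.961). miR-221-5p, for example, had 12580 CPM in the input and 1321 and 1673 CPM in the trapped groups. For miR-652-5p they were miR-152-3p (0.989), miR-548k (0.988) and miR-1226-3p (0.982), and for miR-652-3p they were miR-548k (0.956), miR-374b-3p (0.956) and miR-1226-3p (0.948). miR-548k, close to both arms of miR-652, had 242, 15.7 and 121 CPM in the same groups. Among the 4 arms themselves, r was 0.95 between the arms of miR-652 and -0.23 between those of miR-505, and the 3p arms had 0.71 with each other. The 5p arms had r of -0.69 with each other, as their choice fixed. The value within each hairpin also involves a chosen 5p arm, so it depends partly on that choice.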

How the data were processed

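Small RNA of ES-2 lysate (input), MS2 control miTRAP and PD-L1 3'UTR miTRAP was sequenced in 3 libraries each. The deposited table holds raw counts per mature miRNA locus. Per the labels and methods, the authors used Cutadapt 1.18 for trimming, Bowtie2 2.2.6 for alignment (hg38 in the labels, GRCh37 or 38 in the methods) and featureCounts 1.6.3 with miRBase for counting. The loci of a name were summed, 2883 rows giving 2652 names. With edgeR 4.0.16 in R 4.3.3, counts were filtered by filterByExpr (408 kept, 99.7% to 99.9% of reads), scaled by TMM and fitted with 3 group means on all 9 libraries (glmQLFit, glmQLFTest, two-sided). P values were adjusted by Benjamini-Hochberg over all 408, with a threshold of 0.05. SE is the log2 fold change over the square root of F. Binomial intervals used scipy 1.17.1. Tests planned for the 5p arms and the arm balance against the input are not given, since input values entered the choice of these arms. A group at 0 reads was set to 3 reads per library, and a group with 1 to 3 reads is given as a pooled ratio. Intervals of shares and of pooled ratios cover counting error only. Those of log2 fold changes use the edgeR SE and so include the spread between libraries. The procedure was tested on simulated counts. The members and lists were chosen with earlier results of these data known. miRNAs named are the 4 arms, for each the 3 with the highest r, miRNAs with a shared seed, the 3 largest arm shifts each way, and marker miRNAs of blood, liver, muscle and epithelium. The 5 hairpins named for the change of major arm, of which miR-365b and miR-454 fall outside that rule, were chosen after their values were seen. Alternatives included DESeq2 1.42.0. The genomic position of the miR-505 hairpin is not reported here.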

Additional observations from a re-analysis of the deposited data

How the results depend on the processing

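Scaling by library totals raised the median log2 fold change over the 408 miRNAs by 0.63 in the MS2 control and by 0.57 with the PD-L1 3'UTR, each against the input. Calls against the input then split into 199 higher and 104 lower in the MS2 control (134 and 151 with TMM) and 192 and 90 with the PD-L1 3'UTR (139 and 132 with TMM). Under library totals miR-652-3p against the input turned to 0.17 with the PD-L1 3'UTR, miR-505-5p had a log2 fold change of 4.20 in the MS2 control, and miR-652-5p was at least 14.01-fold lower there. For the PD-L1 3'UTR against the input, miR-652-5p then had a log2 fold change of -1.38 and the pooled input level of miR-505-5p was 14.6 times as high. Testing every miRNA with a read gave 201 lower with the PD-L1 3'UTR than in the input. The arm shift of miR-652 was -4.07 from input to MS2 control and 2.70 from there to the PD-L1 3'UTR with 1 added to the counts, and -6.67 and 5.10 on summed reads, because 0 reads set no ratio. Apart from fits leaving out a library, 147 of 157 values held, meaning same direction and threshold side or a move within the spread. For counts over all miRNAs it meant a ratio up to 1.5. Of 30 counts over the lists with GGG, with first base G or U and in the outer GC quartiles, 8 moved by over 1.5 times under library totals.

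Leaving out each library in turn gave -0.69 to -0.32 for miR-652-3p with the PD-L1 3'UTR against the input, which passed the threshold without MS2 control replicate 3 (-0.58, adjusted p of 0.0460). The log2 fold change of miR-505-5p in the MS2 control against the input was 3.24 to 3.68, and its ratio of the MS2 control to the PD-L1 3'UTR was 168 to 297, being 168 without PD-L1 3'UTR replicate 3. Its ratio of the input to the PD-L1 3'UTR was 14.1 to 28.6. Neither ratio could be formed without PD-L1 3'UTR replicate 1, which held the only read. The lower bound for miR-652-5p with the PD-L1 3'UTR over the MS2 control was 4.71 to 6.35. The other calls of the 3p arms were kept in each of these fits. Across all alternatives, adjusted p ranged from 1.06e-15 to 0.000432 for miR-505-3p and from 4.61e-12 to 0.00121 for miR-652-3p in the MS2 control against the input.

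Deviations from group means correlated from -0.17 to 0.13 within replicate numbers and -0.12 to 0.19 between. Best matches shared the number in 2 of 9 libraries. Deviations cancel within a group and replicate 1 stood apart in each, so pairing stays undecided. With the number as a block, 129 miRNAs were higher and 147 lower in the MS2 control against input, and no 3p arm call changed. Depth limits the 5p arms, since 1 read decides the miR-505-5p level with the PD-L1 3'UTR.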
